A study of Mus musculus with 8 samples.

Results

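The AP-1 and immediate-early transcription factors described here are 10 genes of the FOS, JUN, ATF, BATF and EGR families: Fos, Fosb, Fosl2, Jun, Junb, Jund, Atf3, Batf, Egr1 and Egr2. Every non-control probe whose transcript accession belongs to one of these symbols was taken, which gave 11 of the 39378 probes analysed and 10 of the 20125 genes named on the array. Fosl2 had 2 probes and the other 9 genes had 1 probe each. The probes were read on 8 one-colour arrays from mouse pro-B cell lines, all of which lack Ebf1, a transcription factor needed for B-cell commitment. Pro-B(+) cells were established from fetal liver progenitors on OP9, a stromal line, and keep the ability to enter the T lineage upon Notch stimulation. Pro-B(-) cells were established on TD7, a thymic stromal line, and lack that ability. Pro-B(-) cells were also studied after lentiviral transduction with an empty vector, as pro-B(-)/Mock cells, or with Lmo2, a bridging protein of haematopoietic transcription complexes, as pro-B(-)/LMO2 cells. Each of the 4 groups had 2 arrays, and the labels do not say whether these came from separate cultures, so a p-value measures only the spread between these arrays, which may be technical. The stromal cells on which the transduced cells were kept before RNA isolation are not given in the labels.

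AP-1 is a dimer of a JUN protein with a JUN, FOS, ATF or BATF protein, joined through leucine zippers. It binds short palindromic DNA elements. Most of its genes, together with those of the EGR zinc-finger proteins, are immediate-early genes: they are transcribed within minutes of a growth factor, cytokine, antigen receptor or stress signal, from factors already present in the cell, and their mRNAs are mostly short-lived. In lymphoid cells BATF and JUN proteins bind DNA together with IRF4 or IRF8, and EGR proteins recruit the corepressors NAB1 and NAB2. Such genes are also known to respond to handling and to fresh medium.

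Promoter sequences from RefSeq (build GRCm38.p6) were at hand for 9 of the 10 genes. They run from 250 bases before to 50 bases after each start site. Egr1 had no usable entry, so its promoter was not searched. The sequences are shown because several of these genes are known to be controlled through AP-1, cyclic AMP, serum or EGR elements close to the start. Both strands were searched. The 9 genes had 13 promoter entries, and a gene was counted if any of its entries held the element. The shares of all promoters are of entries, so the gene counts are not on the same footing. The AP-1-like element TGACATCA was in the Jun promoter and in 3.62% of all 32851 promoters, and the EGR-type element GCGGGGGCG was in the Fosb and Fosl2 promoters and in 2.91% of all. A CArG box, the site of serum response factor, was in 4 Egr2 start windows in 2 distinct copies and in 1.63% of all promoters. TGACG, the core of the cyclic AMP element, was in 6 of the 9 genes and in 20.8% of all promoters. No promoter of these genes held TGACTCA, TGACGTCA (which contains TGACG) or GCGTGGGCG, which were in 5.2%, 1.79% and 0.612% of all promoters. Windows of 30 bases upstream of the start site are given 5′ to 3′ on the strand of the gene, with the element in capitals. Jun (chr4:95052249-95052278, minus strand) has the element 45 bases before the start, Fosb (chr7:19310077-19310106, minus strand) 50 bases, and Fosl2 (chr5:32136382-32136411, plus strand) 79 bases. Fos (chr12:85473811-85473840, plus strand) has TGACG 66 bases before the start. The Egr2 copies lie on the plus strand at chr10:67537484-67537513 and chr10:67537787-67537816, each 72 bases before one of the annotated start sites. A match is a description of the letters and not evidence of binding.
Jun: aagcctcggggTGACATCAtgggctatttt
Fosb: gtgacgcaagcGCGGGGGCGggtcccggag
Fosl2: tccggctgcgcGCGGGGGCGgaagggcgcg
Fos: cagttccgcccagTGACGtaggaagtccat
Egr2, upstream copy: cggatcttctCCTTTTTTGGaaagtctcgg
Egr2, downstream copy: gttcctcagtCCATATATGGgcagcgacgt

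Values are normalized log2 signals, in which 0 is the upper quartile of the array, and no probe's level was set against another's. The upper quartile intensity ranged from 604 to 949, and 56.5% to 61.2% of probes were well above background. Both parental groups were hybridised on 1 slide and both transduced groups on a second slide, so pro-B(+) against pro-B(-) and pro-B(-)/LMO2 against pro-B(-)/Mock are comparisons within a slide, whereas in pro-B(-)/Mock against pro-B(-) group and slide cannot be told apart. The same holds wherever a parental group is ranked against a transduced group below. The Lmo2 probe was 1.53-fold higher in pro-B(-)/LMO2 than in pro-B(-)/Mock cells, and pro-B(+) exceeded pro-B(-) cells 2.76-fold (limma adjusted p = 5.55e-05 and 2.8e-06). The Ebf1 probe was well above background in all groups, with means from 1.13 to 1.52, and because its place relative to the deleted part was not determined it is no check of the genotype. Of 14 pro-B markers, 11 passed background on both arrays in each group. In a bulk sample, fewer cells of a type and less RNA per cell cannot be told apart.

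The FOS proteins cannot pair with each other and bind DNA only with a JUN partner. Fos, the founding member, read 2.48 and 2.51 on the pro-B(+) arrays, 1.12 and 1.14 on the pro-B(-) arrays, -0.64 and -0.66 on the pro-B(-)/Mock arrays, and 0.25 and 0.27 on the pro-B(-)/LMO2 arrays. Both parental lines lay above both transduced lines, and the lowest group was pro-B(-)/Mock. The Fos probe is spotted 10 times on each array, and the spots varied with a coefficient of 2.4% to 3.51%. Fosb, which encodes a full-length and a truncated product that the probe values do not separate here, read 0.23 and 0.28 in pro-B(+), -0.91 and -0.78 in pro-B(-), -2.81 and -2.76 in pro-B(-)/Mock, and -0.96 and -0.92 in pro-B(-)/LMO2 cells. Its groups fell in the same order as those of Fos. The pro-B(-) and pro-B(-)/LMO2 arrays of Fosb were adjacent and did not overlap, but the nearest of them read -0.909 and -0.918 on different slides. Fosl2, which encodes FRA-2, a FOS protein without a strong transactivation domain, read -1.39 and -1.36 in pro-B(+), -1.71 and -1.70 in pro-B(-), -0.50 and -0.49 in pro-B(-)/Mock, and 0.69 and 0.72 in pro-B(-)/LMO2 cells. Unlike Fos and Fosb, it was higher in both transduced groups than in either parental line. The second Fosl2 probe was not well above background on any parental array and lay between -6.76 and -5.44 over all 8 arrays, so the brighter probe stands for the gene.

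**Figure D1:**
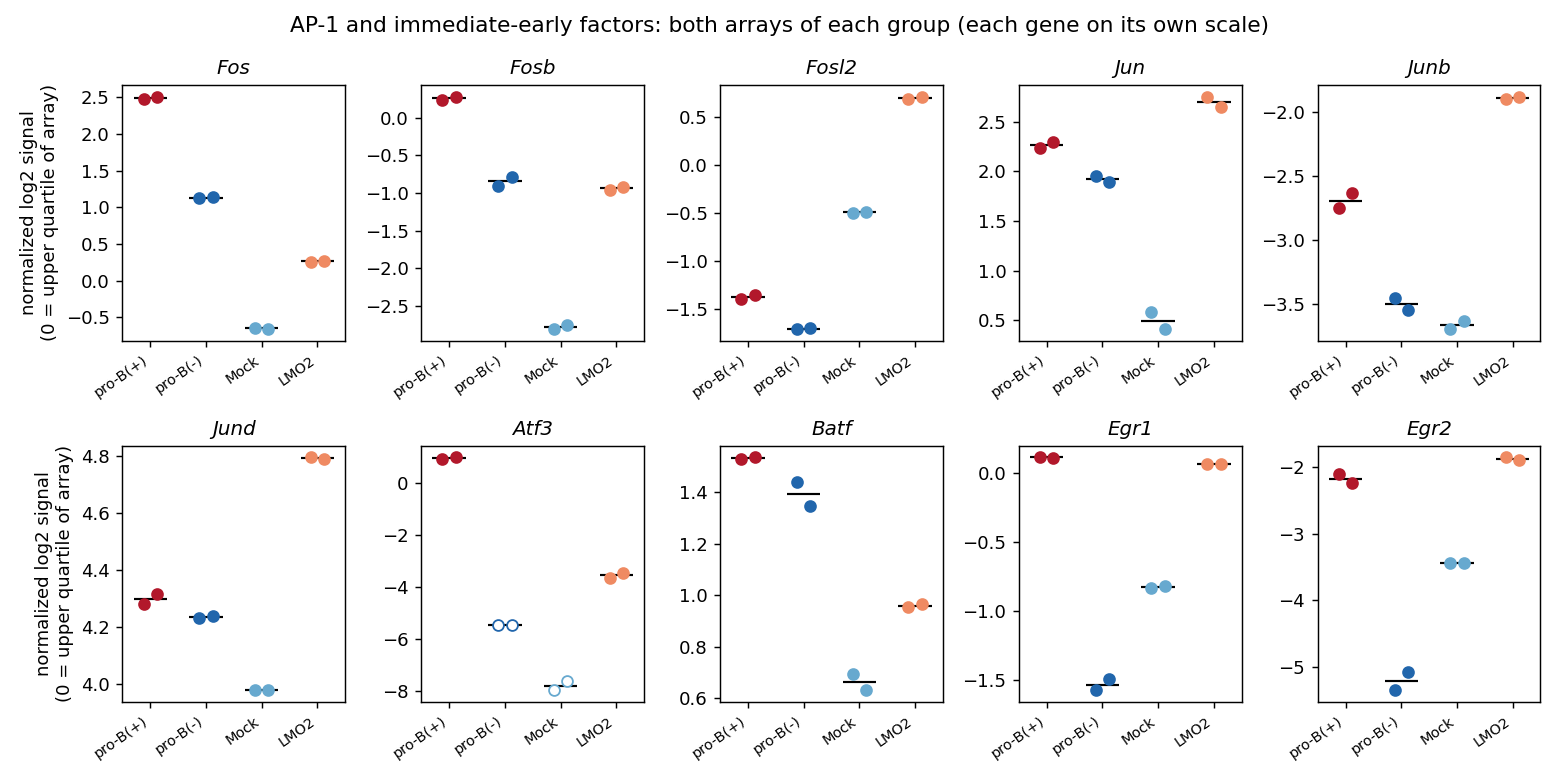
Normalized log2 signal of each of the 10 factors (vertical axis, 0 is the upper quartile of the array, each gene on its own scale) on both arrays of the 4 groups; points are arrays, lines are group means, and open points are not well above background. Fos falls from 2.49 in pro-B(+) to -0.65 in pro-B(-)/Mock cells, Fosl2 and Egr2 are lowest in pro-B(-) cells, and both Atf3 values are open in pro-B(-) and in pro-B(-)/Mock cells.

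Jun, which encodes the strongest transactivator of the JUN proteins, read 2.23 and 2.29 in pro-B(+), 1.95 and 1.89 in pro-B(-), 0.58 and 0.41 in pro-B(-)/Mock, and 2.75 and 2.65 in pro-B(-)/LMO2 cells. The 2 pro-B(-)/Mock arrays were the low ones, below every array of the other groups. Junb, whose product can restrain JUN, read -2.75 and -2.63 in pro-B(+), -3.45 and -3.54 in pro-B(-), -3.69 and -3.62 in pro-B(-)/Mock, and -1.90 and -1.88 in pro-B(-)/LMO2 cells. The low pair was pro-B(-) and pro-B(-)/Mock, and both high groups lay apart from them. Jund, the JUN gene that is expressed steadily in most resting cells, read 4.28 and 4.32 in pro-B(+), 4.23 and 4.24 in pro-B(-), 3.98 and 3.98 in pro-B(-)/Mock, and 4.80 and 4.79 in pro-B(-)/LMO2 cells. The means of Jund spanned 0.81 on the log2 scale, the narrowest range of the 10 genes. By their means, Jun, Junb and Jund shared one order of groups, from pro-B(-)/LMO2 through pro-B(+) and pro-B(-) to pro-B(-)/Mock. This order crosses the slides, and not every step of it was called. Jund differed by 0.06 between pro-B(+) and pro-B(-) cells (limma adjusted p = 0.155). Junb differed by -0.16 in pro-B(-)/Mock against pro-B(-) cells (limma adjusted p = 0.0541).

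Atf3, which encodes a stress-induced factor that can repress as a homodimer and pairs with JUN proteins, had the widest contrast. It read 0.93 and 1.0 in pro-B(+) cells and -3.66 and -3.45 in pro-B(-)/LMO2 cells. In pro-B(-) and pro-B(-)/Mock cells the probe was not well above background on any of the 4 arrays. Batf, which encodes a small factor of lymphoid cells that has no transactivation domain of its own, read 1.53 and 1.54 in pro-B(+), 1.44 and 1.35 in pro-B(-), 0.70 and 0.63 in pro-B(-)/Mock, and 0.95 and 0.97 in pro-B(-)/LMO2 cells. The parental lines lay above the transduced lines, as for Fos and Fosb, an order in which group and slide cannot be told apart. Its probe is also spotted 10 times, with a coefficient of variation of 2.46% to 7.7%.

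Egr1, a zinc-finger factor induced by mitogen and antigen receptor signals, read 0.11 and 0.11 in pro-B(+), -1.57 and -1.50 in pro-B(-), -0.83 and -0.82 in pro-B(-)/Mock, and 0.06 and 0.07 in pro-B(-)/LMO2 cells. The pro-B(+) and pro-B(-)/LMO2 means, 0.11 and 0.06, lay close together but the arrays did not overlap. Egr2, a related factor that limits activation in lymphocytes, read -2.11 and -2.24 in pro-B(+), -5.34 and -5.08 in pro-B(-), -3.43 and -3.44 in pro-B(-)/Mock, and -1.86 and -1.90 in pro-B(-)/LMO2 cells. It was dim in pro-B(-) cells, with intensities of 20.0 and 22.7, though still well above background on both arrays. Both EGR genes were lowest in pro-B(-) cells, whereas 6 of the 9 factors above background on all arrays (Fos, Fosb, Jun, Junb, Jund and Batf) were lowest in pro-B(-)/Mock cells. The highest group was pro-B(+) for 5 factors and pro-B(-)/LMO2 for the other 5. The widest gap between the 2 arrays of a group was 0.262 on the log2 scale over the 9 factors measured above background on all arrays, and it was that of Egr2 in pro-B(-) cells.

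How the parental lines, with and without T-lineage potential, differ in these factors was addressed by pro-B(+) against pro-B(-). Each side is a line of its own, established on OP9 or on TD7. T-lineage potential, line and stromal cells of origin therefore cannot be told apart. Of the 10 factors 9 were higher in pro-B(+) cells and none was lower, where 20.6% of the 23468 probes tested were called higher and 28.0% lower, and 5 were at least 2-fold higher, where 8.47% of probes were. The median difference of the 10 was 0.95 on the log2 scale, with -0.04 over all probes tested. The factors were chosen with earlier results of these data known. These counts, and those with Lmo2 below, therefore describe the factors and do not test them as a set. The 5 factors at least 2-fold higher were Fos at 2.57-fold (log2 1.36 ± 0.03 SE), Fosb at 2.15-fold, Egr1 at 3.13-fold, Egr2 at 8.18-fold and Atf3. For Atf3 the size of the difference is not determined, since pro-B(-) cells did not measure it above background. Its pro-B(+) mean was 85.8-fold the signal of the probe on the pro-B(-) arrays. Adjusted p-values from limma were 2.8e-06 for Fos, 3.86e-05 for Fosb, 2.39e-06 for Egr1 and 6.69e-06 for Egr2. Atf3, counted among the 9 and the 5, entered the test only through pro-B(+) cells, so its p-value is not given. Junb rose 1.75-fold (adjusted p = 1.67e-04, limma) and Fosl2 1.26-fold (adjusted p = 5.91e-04).

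Jun was 1.27-fold higher in pro-B(+) cells, with a log2 difference of 0.34 and an adjusted p of 0.0114 (limma), and the call was lost without the second pro-B(+) array (adjusted p = 0.0649) or without the second pro-B(-) array (adjusted p = 0.0611). Batf was 1.1-fold higher at an adjusted p of 0.0488, and leaving out any array other than the first pro-B(-) array raised this to between 0.0663 and 0.181. Jund differed by 0.06, with a 95% interval from -0.02 to 0.14 and an adjusted p of 0.155. The scaling matters for these small differences: with each array set to its median in place of its upper quartile, the median of all probes moved from -0.04 to -0.33, Batf read -0.14 and Jund -0.22, both called lower, and Jun and Fosl2 read 0.06 and 0.05 without a call.

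Markers of other cells moved along with the factors between the parental lines, and their part in the result was not tested. In pro-B(+) cells 15 of 18 myeloid markers tested rose and 1 fell, and 13 of them were at least 2-fold higher. Their summed signal was 128 to 129 array upper quartiles against 80.6 to 89.6. The largest part of both sums was Csf3r, with log2 means of 6.05 in pro-B(+) and 6.22 in pro-B(-) cells and no call. Lyz1, which encodes lysozyme and has a close paralog in Lyz2, was 95.2-fold higher, Camp, a granule peptide of neutrophils, 13.0-fold, and Mpo, myeloperoxidase, 10.7-fold (limma adjusted p = 3.85e-07, 1.85e-06 and 4.14e-07). In pro-B(-) cells 7 of the 18 were not above background, among them Lyz2, S100a8, S100a9 and Cd14. Of 16 stromal markers tested 14 were higher and 1 lower. Their summed signal was 40.9 to 41.0 against 43.0 to 44.8, but most of it was Thy1, which lymphoid cells also express, and the sum without Thy1 was 23.5 to 24.2 in pro-B(+) against 9.65 to 9.83 in pro-B(-) cells. The stromal genes Dcn, Lum and Col5a2 were not above background in any group. Of 11 T-lineage markers tested 4 were higher and 4 lower, and of 12 pro-B markers 2 were higher and 6 lower.

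**Figure D2:**
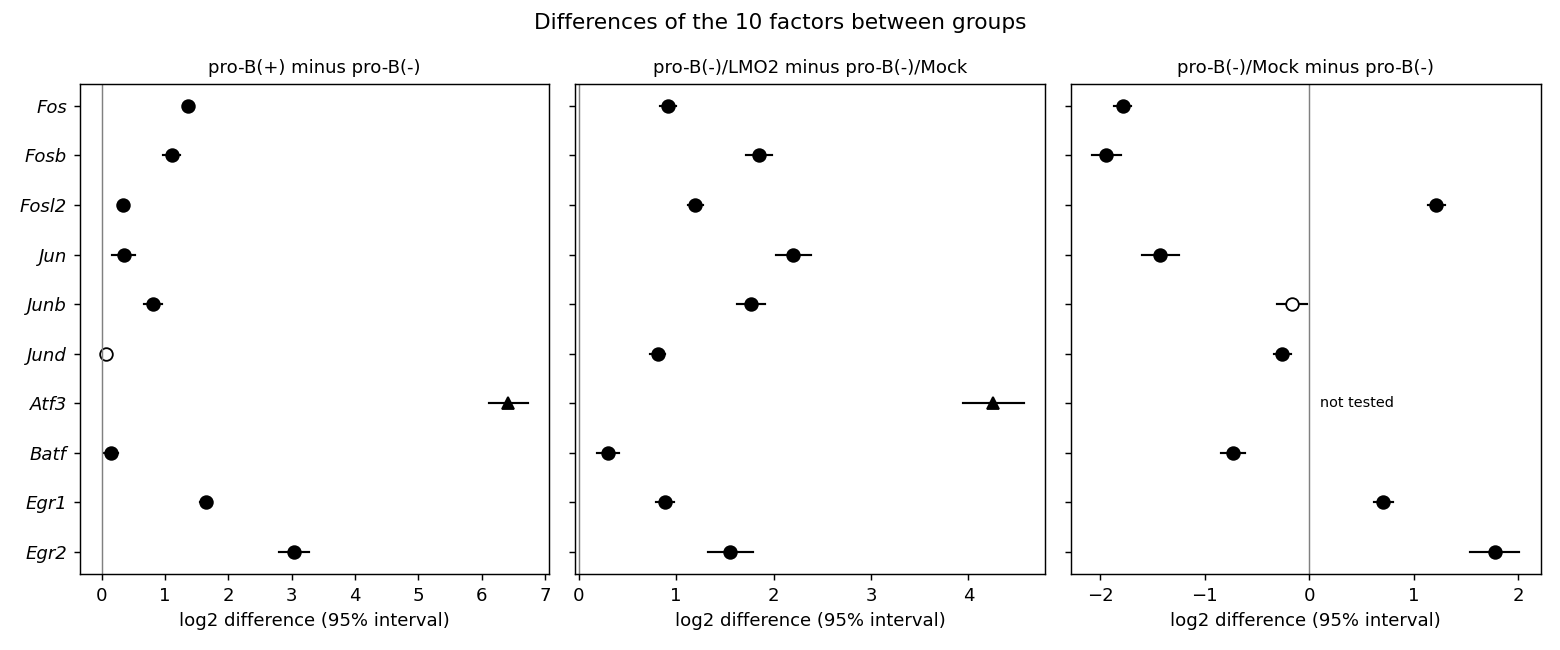
Log2 differences of the 10 factors (horizontal axes, bars are 95% intervals from the fit) in the 3 comparisons. Filled symbols passed the test, open ones did not, and triangles mark Atf3, whose dimmer group lay below background. Its plotted fitted value is 85.8-fold in the first panel. In the second panel the fitted value is 19.1-fold, or 5.84-fold against the lowest signal counted as well above background. The size for Atf3 is not determined in either panel. All points lie above 0 in the first 2 panels, from 0.06 for Jund and 0.30 for Batf at the low ends, whereas the third panel holds both directions.

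The effect of introducing Lmo2 into pro-B(-) cells was addressed by pro-B(-)/LMO2 against pro-B(-)/Mock. The labels do not say whether the arrays of a group came from separate transductions. Lmo2 therefore cannot be told apart from the transduced population or its handling, and "effect of Lmo2" stands for this difference between groups. All 10 factors were higher in pro-B(-)/LMO2 cells, where 28.0% of the 22998 probes tested were called higher and 36.0% lower, and 6 were at least 2-fold higher, where 7.31% of probes were. Their median difference was 1.38, with -0.04 over all probes tested. Jun rose 4.60-fold (log2 2.20 ± 0.07 SE), Fosb 3.60-fold, Junb 3.41-fold, Egr2 2.94-fold and Fosl2 2.29-fold. The other gene, Atf3, was not above background in pro-B(-)/Mock cells, so the size of its difference is not determined. Its pro-B(-)/LMO2 mean was 5.84-fold the lowest signal counted as well above background on the Mock arrays. That signal is not the limit of the Atf3 probe, which read -5.46 and -5.45 in pro-B(-) cells without passing background. Among these genes other than Atf3, adjusted p-values from limma ran from 4.93e-06 for Fosl2 to 6.80e-05 for Egr2. Atf3, counted among the 10 and the 6, entered the test only through pro-B(-)/LMO2 cells. Fos rose 1.88-fold, Egr1 1.85-fold and Jund 1.76-fold, with adjusted p-values of 1.16e-05, 2.10e-05 and 1.54e-05. Batf rose 1.23-fold at an adjusted p of 0.0023, and with median scaling, which moved the median of all probes to -0.25, its difference was 0.09 without a call. The dim second probe of Fosl2 differed by 0.54 with a 95% interval from -0.07 to 1.16 and an adjusted p of 0.104.

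Beside these values, 8 of 13 myeloid markers tested rose and 1 fell with Lmo2, with a summed signal of 80.2 to 85.6 against 76.6 to 78.6. Most of both sums was Csf3r, with log2 means of 5.78 in pro-B(-)/LMO2 and 6.05 in pro-B(-)/Mock cells. The sums therefore say little of the other myeloid markers. Mpo was 20.9-fold and Lyz1 26.7-fold higher, and S100a8, S100a9, Ltf and Cybb were not above background in either group. Of 17 stromal markers 9 were higher and 3 lower, and without Thy1 their summed signal was 33.3 to 34.2 against 25.2 to 26.0. The 14 pro-B markers summed to 46.0 to 46.1 against 30.6 to 32.0. The rise of this sum was carried by Dntt, the terminal transferase of V(D)J joining. It was 16.2-fold higher, with means of 4.37 against 0.35. Rag1 and Rag2, the recombinase subunits, fell by 2.78 and 2.11 on the log2 scale. In all 4 of 12 pro-B markers tested were higher and 6 lower, and 6 of 11 T-lineage markers were higher and 2 lower. Their part in the result was not tested.

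**Figure D3:**
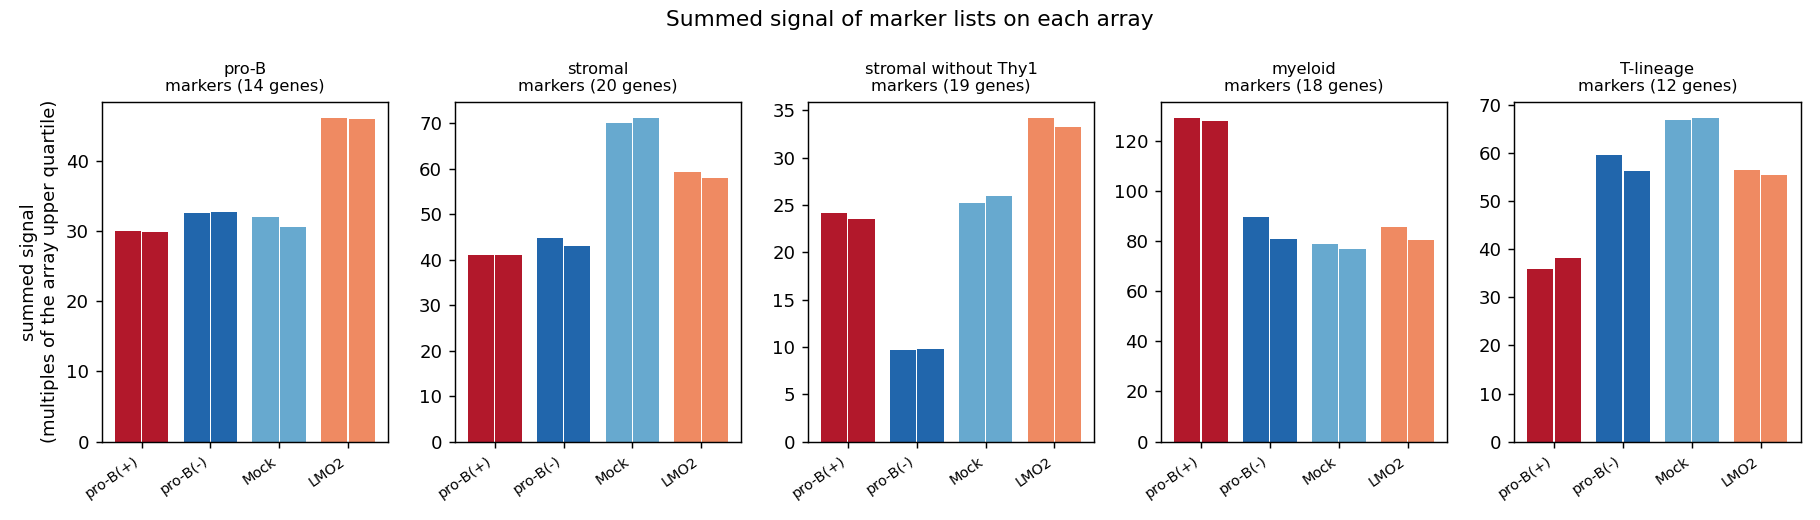
Summed signal of the marker lists (vertical axis, multiples of the upper quartile of the array) on each of the 8 arrays, 2 bars per group. The myeloid sum is highest in pro-B(+) cells at 128 to 129, and its largest part in every group is Csf3r. The stromal sum without Thy1 is lowest in pro-B(-) cells at 9.65 to 9.83 and highest in pro-B(-)/LMO2 cells at 33.3 to 34.2.

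The parental difference and the effect of Lmo2 share no array, and the difference between them was tested in the same fit. It was called for 9 of the 10 factors, where 54.1% of the 24584 probes tested were called. One of the 9 was Atf3, for which pro-B(-) and pro-B(-)/Mock cells gave no value above background, so neither the size nor the direction of its gap is determined. The parental difference was the larger for Fos, Egr1 and Egr2, where 29.0% of probes were called in that direction, and the effect of Lmo2 was the larger for Fosb, Fosl2, Jun, Junb and Jund, where 25.1% were. The share of factors on the parental side was near that of all probes, so it is no trait of these factors. By family, all 3 JUN genes were on the Lmo2 side, both EGR genes on the parental side, and the FOS genes were split. Families this small describe these genes only. For Jun the parental difference was 0.34 and the effect of Lmo2 2.20, a gap of -1.86 ± 0.10 SE (limma adjusted p = 8.29e-05). For Egr2 they were 3.03 and 1.56, a gap of 1.48 ± 0.13 SE (adjusted p = 4.50e-04). The gap for Batf was -0.16 with a 95% interval from -0.32 to 0.00 and an adjusted p of 0.0896.

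**Figure D4:**
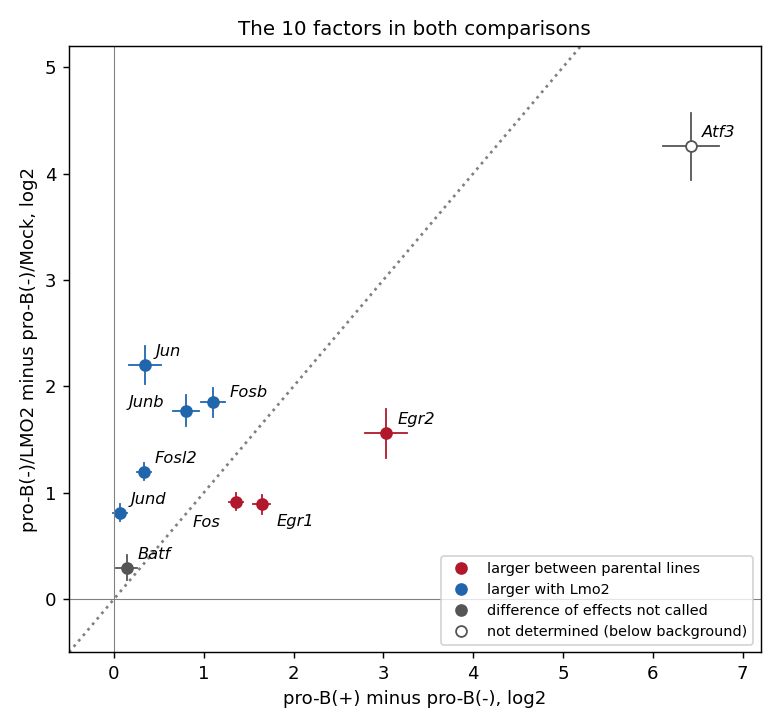
Log2 difference of each factor between the parental lines (horizontal axis) and with Lmo2 (vertical axis), with 95% intervals; the dotted line marks equal differences, colours give the test of the difference between them, and the open grey symbol is Atf3, a fitted value whose side of the line is not determined. Jun lies at 0.34 and 2.20, far to the Lmo2 side, and Egr2 at 3.03 and 1.56 on the other side.

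Pro-B(-)/Mock against pro-B(-) compares the control of the transduction with the untransduced line, uses the same arrays as the 2 comparisons above, and crosses the slides. Of 9 factors tested 3 were higher in pro-B(-)/Mock cells, where 27.9% of the 23048 probes were called higher, and 5 were lower, where 30.2% were called lower. Egr2 was 3.42-fold, Fosl2 2.32-fold and Egr1 1.63-fold higher. Fosb fell by 1.94, Fos by 1.78 and Jun by 1.42 on the log2 scale, and Batf and Jund fell by 0.73 and 0.26. Junb differed by -0.16 at an adjusted p of 0.0541 (limma), and with another background correction its difference was 0.041. Atf3 was not tested, since neither group measured it. Lmo2 itself differed by -0.28 here, and 15 of 17 stromal markers were higher and none was lower in pro-B(-)/Mock cells. Beside these 3 falls, the parental differences of Fos, Fosb and Jun were 1.36, 1.1 and 0.34, and both comparisons rest on the same pro-B(-) arrays.

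The lists of related genes were read in the same fit, by the brightest probe of each gene. The lists were chosen with earlier results of these data known, so list counts describe and do not test. Their counts stand against 20.6% of all probes tested called higher and 28.0% lower in pro-B(+) cells, 28.0% higher and 36.0% lower with Lmo2, and a median of -0.04 in both comparisons. Among 30 other immediate-early genes, which encode further factors, phosphatases and secreted proteins induced by the same signals, 22 of 26 tested rose and 1 fell in the pro-B(+) line, with a median of 0.54. With Lmo2 21 of 27 were higher and 4 lower, with a median of 0.90. Nr4a1, an orphan nuclear receptor and a standard readout of antigen receptor signals, exceeded its pro-B(-) level 4.41-fold in pro-B(+) cells and its Mock level 4.47-fold with Lmo2. Between the parental lines Sgk1, a kinase, was 5.55-fold, Plaur, the urokinase receptor, 3.77-fold and Dusp1, a phosphatase of MAP kinases, 2.96-fold higher. With Lmo2 Ier3 was 7.93-fold, Ccn2, a secreted matrix protein, 7.77-fold and Zfp36, which destabilises mRNAs including those of cytokines, 3.91-fold higher. The 5 MAP kinase phosphatases of the list went both ways with Lmo2, where Dusp6, Dusp4 and Dusp2 fell by 0.83, 0.74 and 0.19, and Dusp5 and Dusp1 rose 2.36-fold and 2.03-fold. Between the parental lines Dusp6, Dusp4 and Dusp5 rose 1.29-fold, 1.37-fold and 1.32-fold, and Dusp2 differed by 0.03 without a call. Apart from Dusp1, these phosphatases were singled out after their values were seen. Egr3 and Egr4, the remaining EGR genes, were not tested in any comparison because neither reached background on both arrays of a group.

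**Figure D5:**
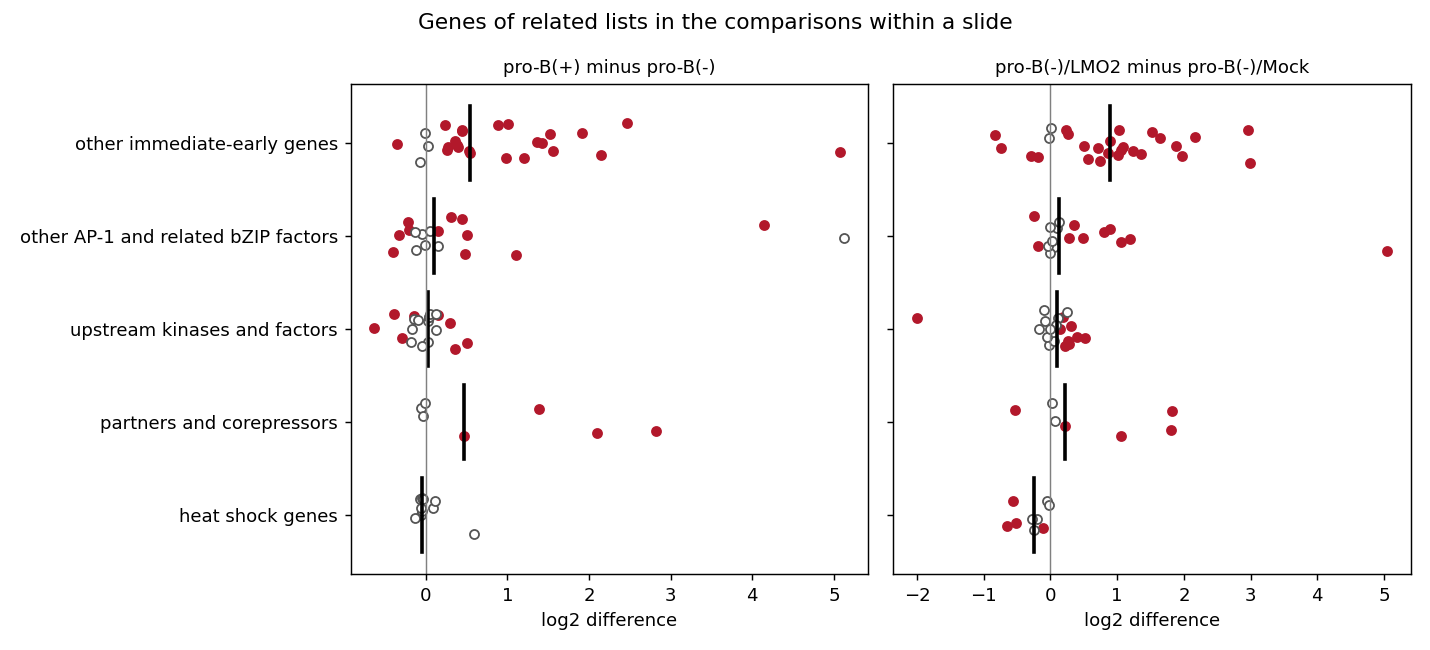
Log2 difference (horizontal axis) of each gene tested in 5 lists of related genes, between the parental lines (left) and with Lmo2 (right); filled points passed the test, open points did not, black bars are medians, and vertical scatter has no meaning. The median of the other immediate-early genes is 0.54 on the left and 0.90 on the right, and that of the heat shock genes is -0.05 and -0.25.

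Among 20 other AP-1 and related bZIP factors, 7 of 18 tested rose and 4 fell in the pro-B(+) line (median 0.10), and 8 of 17 were higher and 2 lower with Lmo2 (median 0.13). Bach1, which pairs with small MAF proteins, and Maff, one of those proteins, rose 1.42-fold and 1.40-fold in the pro-B(+) line, and Bach2, a repressor of lymphoid cells, fell by 0.40. With Lmo2 Batf3, the relative of Batf known from dendritic cells, rose 33.0-fold, from a mean of -4.14 to 0.90. Crem, a cyclic AMP responsive factor, rose 2.29-fold, Nfe2, a factor of megakaryocytic and erythroid cells, 2.09-fold, and Fosl1, which encodes FRA-1, 1.86-fold.

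The partners of AP-1 and EGR proteins moved as follows. Irf4 rose 7.07-fold and Irf8 4.28-fold in the pro-B(+) line, and 3.50-fold and 3.53-fold with Lmo2. Nab2, a corepressor that EGR proteins themselves induce, was 2.62-fold and 2.08-fold higher, with adjusted p-values of 6.61e-06 and 1.90e-05 (limma), and its dimmer second probe differed by 1.15 and 0.74, the latter at an adjusted p of 0.0724. Nab1 differed by -0.03 and 0.07 without a call. Of the 7 genes in this list 4 rose and none fell in the pro-B(+) line, and 4 rose and 1 fell with Lmo2, the latter being Cops5, a JUN-binding subunit of the COP9 signalosome, which fell by 0.54.

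Of 20 upstream kinases and the factors they act on, 4 rose and 4 fell in the pro-B(+) line, with a median of 0.02, and the share that rose was near that of all probes. With Lmo2 8 were higher and 1 lower, with a median of 0.10. Map2k1, the kinase that activates ERK, was 1.42-fold and 1.32-fold higher in these comparisons. Srf, the factor that binds CArG boxes, differed by -0.09 between the parental lines without a call and was 1.1-fold higher with Lmo2, at an adjusted p of 0.0179, while its other probe differed by 0.03 there without a call. The lower gene with Lmo2 was Mapk8, the JUN kinase JNK1, whose brightest probe fell by 2.00, while its other 2 probes differed by -0.17 without a call and by -0.13. Heat shock genes, which mark stress of the culture or of handling, were called in neither direction in pro-B(+) cells (0 of 10 tested by limma, and 1 at an unadjusted p under 0.05), and 4 of 9 were lower and none was higher with Lmo2, where 36.0% of all probes were called lower. Hspd1, a mitochondrial chaperonin, fell by 0.65. A dimmer second probe gave other calls for 2 of these genes, and both were singled out after their values were seen. That of Hsph1 differed by 0.28 in pro-B(+) against pro-B(-) cells (limma adjusted p = 0.00625), and that of Dnaja1 by 0.28 with Lmo2 (limma adjusted p = 0.0123), where the brightest Dnaja1 probe fell by 0.52. Hspa1b had no probe, and Hspb1 was too dim to be tested between the parental lines. Hspa1a was not above background in pro-B(-) cells and differed by 0.59 there without a call. Whether the cells had been stressed was not tested.

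The genes whose pattern over the 4 group means came closest to that of a factor were sought for the 3 factors with the widest range among those above background on all arrays, as the smallest root mean square difference of centred means over 11641 genes. For Fos, which ranged over 3.14, they were Prr5l at 0.0856, Tnnt3 at 0.142 and Ifitm2 at 0.197. For Fosb they were Gch1 at 0.172, Trim30d at 0.178 and Aim2 at 0.187. For Egr2 they were Calm4 at 0.235, Hspb11 at 0.237 and Tmem140 at 0.24. With 4 means per gene, such a likeness describes these arrays only.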

How the data were processed

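Cy3-labelled cRNA from each sample was read on a one-colour Agilent whole mouse genome array. Spot intensity, background-subtracted and detrended by Feature Extraction 11.5.1.1 per the file headers, was taken from the authors' deposited scanner output. The authors also deposited a matrix of log2 values after 75th percentile normalization, which differed from log2 of the same intensities by 1 constant per array. Of 39429 non-control probes, 51 without an unflagged spot on some array were left out. Spots of a probe were averaged, and log2 intensity minus the array's 75th percentile was analysed, so the number of arrays limits the precision. Accessions named 26550 probes (67.4%) through a RefSeq table of GRCm38.p6, and since the array was annotated on mm9 no probe coordinates are given. The brightest probe stood for a gene.

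All 8 arrays entered 1 fit of 4 group means in limma 3.58.1 (R 4.3.3, lmFit and eBayes, 4 residual degrees of freedom). A probe was tested where both arrays of some group compared were well above background, and called where p, adjusted by Benjamini-Hochberg over all tested probes, was under 0.05. With 2 arrays against 2 an exact permutation test cannot go below p = 0.333. The fit was tested on simulated data. The factors and all lists, of other bZIP factors, immediate-early genes, upstream genes, partners, heat shock genes and cell markers, were chosen with earlier results of these data known. All 10 factors are named, with up to 4 called genes of largest difference per list and comparison, partner genes, and the 3 genes of closest pattern. Same-numbered arrays did not deviate together (correlations of replicate differences -0.0272 to 0.0515), so the numbers were not taken as pairs. Alternatives changed the scaling, background, dim-probe filter, moderation, samples, block, probe rule and replicates.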

Additional observations from a re-analysis of the deposited data

Results flagged for a closer look

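The difference between the parental lines and the effect of Lmo2 differed, by the test of that difference in the limma fit, for 8 of the 9 factors measured above background on all arrays, given here as the parental log2 difference minus the effect of Lmo2. The gap was positive for Egr2 at 1.48, Egr1 at 0.76 and Fos at 0.45. It was negative for Jun at -1.86, Junb at -0.97, Fosl2 at -0.87, Jund at -0.75 and Fosb at -0.74. The smallest of the 8 adjusted p-values was 7.68e-05, for Fosl2, and the largest 7.34e-04, for Fosb. The fit also called Atf3, with a fitted gap of 2.17, but pro-B(-) and pro-B(-)/Mock cells did not measure it above background, so neither the size nor the sign of that gap is determined. With 2 arrays in each group, no array could be examined as an outlier within its group.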

How the results depend on the processing

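The 4 counts of factors called stayed within 1.5 times their values under every alternative run, with 7 to 9 of 10 called between the parental lines, 10 with Lmo2, 8 to 9 for pro-B(-)/Mock against pro-B(-) and 9 to 10 for the difference of effects when each array was left out in turn. With each array scaled to its median, 18513 probes were called between the parental lines in place of 11402, of which 2932 were higher in place of 4835, and the factors split into 6 higher and 2 lower. Under that scaling Jund read -0.22 and Batf -0.14 in pro-B(+) against pro-B(-) cells. With normexp correction of the median spot signal, chosen after seeing the data because the planned mean spot signal was not among the columns used here, Junb read 0.041 in pro-B(-)/Mock against pro-B(-) cells. The planned form was not run. With the replicate number as a block, which does not pair these samples, 8, 10, 8 and 9 factors were called in the 4 comparisons, and Batf lost its parental call (adjusted p = 0.0563). Of 689 values of single factors under the alternatives, 663 kept their direction and call, 15 lost the call, 8 gained one and 3 turned. The cause was not tested. Signal over background limits Atf3, the second Fosl2 probe, Egr3 and Egr4.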

Other observations

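Fos, Jdp2 and Batf are successive protein-coding genes on chromosome 12. Jdp2, which encodes a JUN-dimerising repressor, fell by 0.33 on the log2 scale in the pro-B(+) line relative to pro-B(-) (limma adjusted p = 0.028) and rose 1.21-fold with Lmo2 (adjusted p = 0.0406). From the untransduced line to the Mock control it differed by 0.0025 without a call, while Fos and Batf fell by 1.78 and 0.73.

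Some list genes outside the rule for named genes were singled out after their values were seen. Ptgs2, the inducible cyclooxygenase, was not above background in pro-B(-) cells. Its pro-B(+) mean was 8.16-fold the lowest signal counted as well above background on the pro-B(-) arrays. With Lmo2 Ptgs2 rose 3.13-fold. Batf3 also rose 17.7-fold in the pro-B(+) line, though 1 pro-B(-) array did not reach background. Ier2, an immediate-early gene of the same kind as Fos, differed by -0.01 between the parental lines without a call and was 2.13-fold higher with Lmo2.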
